A study of Mus musculus with 2 samples.

Results

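The genes of the cellular response to low oxygen and of the switch to glycolysis were followed across progenitors and neurons of the embryonic mouse telencephalon. They are 10 members chosen by symbol, namely *Slc2a1*, *Pgk1*, *Ldha*, *Slc16a3*, *Pdk1*, *Bnip3*, *Vegfa*, *Ankrd37*, *Egln3* and *Ndufa4l2*. All 10 were found, with the same gene IDs, among the 28001 features of a single cell library of the septum and the 32286 features of a library of the whole telencephalon. No measured value entered the choice, but the members were picked with earlier results of these data known.

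The first library came from explants around the septum, which pooled 8 E11.5 PGKCre;Rosa26YFP embryos with 4 E12.5 Dbx1Cre;Rosa26tdTomato embryos, each kind from 2 litters. The second came from the whole telencephalic vesicle of 3 wild-type embryos of 2 litters, which the labels place at E12 and the methods at E11.5 to E12. The background strain was C57BL/6J, and the labels also call the explants wild-type. In the explants the Cre lines serve only to switch on a reporter, YFP in nearly any cell for PGKCre and tdTomato in descendants of Dbx1-expressing cells for Dbx1Cre. The PGKCre driver uses the promoter of the member *Pgk1*. Droplet kits of 10x Genomics in versions 2 and 3.1 were used, and reads were counted with different releases of one programme, so levels were not compared between them. Each kind of tissue had 1 library, and its embryos could not be told apart. Cells are not replicates, so no test between conditions was possible and no p-value is given. In place of a test, a gene was called higher or lower where its level differed by at least 1.5-fold and the cells compared held at least 50 of its UMIs, the unique tags that count single transcript molecules. Levels are CPM, the UMIs of a gene in a class of cells per 1000000 UMIs of that class. The intervals are exact 95% intervals and cover counting error only, not differences between embryos.

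After filtering, 5367 cells of the septal explants (median 12857 UMIs) and 11587 cells of the vesicle (median 8986 UMIs) were kept, and the libraries shared 1 barcode sequence. Clusters were named by likeness to marker genes, without using the members or related genes to build them. Apical progenitors (APs), the dividing cells that line the ventricle, numbered 3361 in the explants and 7235 in the vesicle. Basal progenitors (BPs), the intermediate cells that leave the ventricle and give rise to neurons, numbered 315 and 655, and neurons numbered 1399 and 1723. Another 148 and 992 cells had no name, and the remainder were differentiating or non-neural cells. The median depth fell along this order in both libraries, from 14294 UMIs in APs to 12404 in BPs and 10746 in neurons of the explants, and from 10758 to 7356 and 6827 in the vesicle. The levels are scaled to the total of each class. With each cell thinned to the same depth, 7 members were lower in neurons than in APs in either library. The part of depth was not tested beyond such thinning, and that of the total RNA of a cell was not tested.

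Cells adjust to low oxygen through hypoxia-inducible factors (HIFs). Prolyl hydroxylases such as *Egln3* use oxygen to mark the alpha subunit for destruction, and when oxygen is scarce the subunit escapes, pairs with *Arnt* and binds a short motif in the promoters of its targets. The targets raise glucose uptake (*Slc2a1*), glycolysis (*Pgk1*, *Ldha*) and lactate export (*Slc16a3*), hold pyruvate back from the mitochondrion (*Pdk1*), promote removal or remodelling of mitochondria (*Bnip3*, *Ndufa4l2*) and call in blood vessels (*Vegfa*). Several of these genes are also used by dividing cells that are not short of oxygen, and neural progenitors are known to rely on glycolysis more than neurons do.

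The motif is shown first. Promoter sequences did not enter the choice, but the members were chosen by known function in the response to low oxygen. A high share of the motif among them is thus no independent result. RefSeq promoters (GRCm38.p6), which run from 250 bases before to 50 bases after an annotated start, were found for 9 of the 10 members, with 12 promoters in all. The core of the hypoxia response element, ACGTG, was searched on both strands, so that it also reads CACGT, and a CACGTG stretch holds both. It was found in 8 of the 12 promoters (66.7%), which belong to 8 of the 9 members, whereas 19.6% of all 32851 promoters of that length held it. A version of the core with a different first base was also searched on both strands. It reads GCGTG, and was found in 58.3% of the member promoters and in 32.4% of all. Of the members with a promoter, only *Pdk1* had no ACGTG in either window, and a match of letters says nothing of whether a factor binds there. Shown here are the promoters of 3 members that were lowest in neurons, of *Bnip3* and of *Ankrd37*. Among APs, BPs and neurons, *Bnip3* was highest in BPs and *Ankrd37* in neurons. ACGTG or CACGT is in capitals, and the sequences run 5′ to 3′ on the strand of the gene.
*Ldha*, chr7:46845554-46845853, plus strand: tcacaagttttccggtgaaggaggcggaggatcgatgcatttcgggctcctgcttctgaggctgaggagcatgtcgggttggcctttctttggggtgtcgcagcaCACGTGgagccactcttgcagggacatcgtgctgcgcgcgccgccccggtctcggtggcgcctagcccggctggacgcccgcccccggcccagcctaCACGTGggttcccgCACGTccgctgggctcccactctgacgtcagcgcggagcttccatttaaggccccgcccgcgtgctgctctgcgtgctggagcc
*Slc16a3*, chr11:120948817-120949116, plus strand: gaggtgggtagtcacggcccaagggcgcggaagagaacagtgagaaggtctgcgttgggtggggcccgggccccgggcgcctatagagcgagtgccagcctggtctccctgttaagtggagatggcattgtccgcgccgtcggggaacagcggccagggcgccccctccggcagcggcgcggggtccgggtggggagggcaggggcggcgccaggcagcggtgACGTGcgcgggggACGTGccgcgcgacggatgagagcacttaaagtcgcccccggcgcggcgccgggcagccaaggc
*Slc2a1*, chr4:119108495-119108794, plus strand: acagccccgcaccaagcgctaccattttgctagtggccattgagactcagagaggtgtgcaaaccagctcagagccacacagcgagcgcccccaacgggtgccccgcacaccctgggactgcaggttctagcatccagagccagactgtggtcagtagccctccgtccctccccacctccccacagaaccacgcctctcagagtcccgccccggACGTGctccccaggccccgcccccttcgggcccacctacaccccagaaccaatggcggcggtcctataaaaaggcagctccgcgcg
*Bnip3*, chr7:138909457-138909756, minus strand: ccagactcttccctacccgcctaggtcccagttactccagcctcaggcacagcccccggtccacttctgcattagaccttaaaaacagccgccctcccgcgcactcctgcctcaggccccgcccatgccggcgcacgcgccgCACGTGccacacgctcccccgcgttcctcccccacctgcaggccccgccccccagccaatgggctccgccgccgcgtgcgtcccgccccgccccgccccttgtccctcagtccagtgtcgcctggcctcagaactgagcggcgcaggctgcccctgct
*Ankrd37*, chr8:45999801-46000100, minus strand: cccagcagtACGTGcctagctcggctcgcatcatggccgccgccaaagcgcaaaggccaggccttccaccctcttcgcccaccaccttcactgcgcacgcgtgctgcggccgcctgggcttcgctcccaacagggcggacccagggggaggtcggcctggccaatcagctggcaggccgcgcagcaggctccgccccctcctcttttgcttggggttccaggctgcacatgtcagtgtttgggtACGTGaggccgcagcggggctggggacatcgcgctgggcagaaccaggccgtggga
The *Ldha* window shown held 3 separate stretches, 2 of them the palindrome CACGTG, and *Bnip3* held 1 palindrome. *Slc16a3* and *Ankrd37* each held 2 single stretches and *Slc2a1* held 1. The windows shown were taken from those with the core motif, and their genes differed in their course along differentiation. The other *Ldha* window (chr7:46846832-46847131), the *Vegfa* window at chr17:46032328-46032627 and both *Pdk1* windows held none. This *Vegfa* window spans the 5′ end of the annotated gene. The core of *Vegfa* was found only in its other window, chr17:46025114-46025413, which lies within the gene.

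The members of glucose uptake and lactate metabolism were highest in APs and lowest in neurons in both libraries. *Slc2a1* (ENSMUSG00000028645, chr4:119108711-119137983 of GRCm38, plus strand), which encodes the glucose transporter of most embryonic cells, stood at 97.3 CPM in APs, 80.6 in BPs and 36.3 in neurons of the septal explants. In the vesicle it stood at 59.3, 40.3 and 16.3 CPM. The intervals of the 3 classes did not overlap in either library, and neurons were 2.68-fold lower than APs in the explants (interval 2.46 to 2.93) and 3.64-fold lower in the vesicle (3.18 to 4.19).

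*Ldha* (ENSMUSG00000063229, chr7:46841475-46855627, plus strand), the lactate dehydrogenase subunit that turns pyruvate into lactate, had 1473 CPM in APs of the explants, 1042 in BPs and 321 in neurons. The same classes had 903, 543 and 157 CPM in the vesicle. Neurons were 4.59-fold lower than APs in the explants (4.46 to 4.72) and 5.76-fold lower in the vesicle (5.52 to 6.02). The gene had 78651 and 123612 UMIs in APs, the most of any member.

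*Slc16a3* (ENSMUSG00000025161, chr11:120948480-120960868, plus strand), a monocarboxylate transporter suited to lactate export, fell in the same order. Its level was 46.6 CPM in APs, 35.4 in BPs and 11.7 in neurons of the explants, and 31.3, 19.0 and 5.93 CPM in the vesicle. Neurons were 3.98-fold lower (3.43 to 4.64) and 5.28-fold lower (4.23 to 6.68). *Pdk1* (ENSMUSG00000006494, chr2:71873224-71903858, plus strand), the kinase that shuts pyruvate dehydrogenase, had 26.7, 19.0 and 6.79 CPM in the explants and 24.1, 11.1 and 4.80 CPM in the vesicle. Its neurons were 3.94-fold lower (3.24 to 4.83) and 5.01-fold lower (3.91 to 6.52). Both genes thus held a middle level in BPs.

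*Pgk1* (ENSMUSG00000062070, chrX:106187100-106203699, plus strand), phosphoglycerate kinase, differed less between classes. It had 26.6 CPM in APs, 25.9 in BPs and 14.0 in neurons of the explants, and 473, 412 and 197 CPM in the vesicle. Neurons were 1.90-fold lower (1.65 to 2.19) and 2.40-fold lower (2.31 to 2.49). The level of this gene is uncertain in the explants, where it was 23.2 CPM over all barcodes against 432 in the vesicle. The gene list of the explants, but not that of the vesicle, holds the near-identical copy *Pgk1-rs7*, with 138 UMIs, and reads that match both could have been dropped. The paralog *Pgk2* had 0 UMIs in the explants and 1 in the vesicle.

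The members of oxygen sensing and vessel growth were also highest in APs. *Egln3* (ENSMUSG00000035105, chr12:54178981-54203860, minus strand), a prolyl hydroxylase that acts on HIF and is itself a target of it, had 10.9 CPM in APs, 3.24 in BPs and 3.92 in neurons of the explants. It had 5.86, 1.30 and 1.35 CPM in the vesicle. Its intervals in BPs and neurons overlapped in both libraries, but BPs held only 14 UMIs of it in the explants and 8 in the vesicle. The ratio of neurons to BPs was 1.21 (0.671 to 2.34) in the explants. In the vesicle the 2 classes held too few UMIs of it to be compared. *Vegfa* (ENSMUSG00000023951, chr17:46016993-46032369, minus strand), the secreted growth factor of endothelial cells, had 5.86, 2.55 and 2.74 CPM in the explants and 26.2, 17.4 and 11.8 CPM in the vesicle. Neurons were 2.14-fold lower than APs in the explants (1.56 to 3.00) and 2.22-fold lower in the vesicle (1.89 to 2.62). The low counts of *Vegfa* in the explants, 313 UMIs in APs and 11 in BPs, leave its intervals wide.

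A pair of members ran the other way. *Ndufa4l2* (ENSMUSG00000040280, chr10:127514967-127517154, plus strand), a relative of a respiratory chain subunit that lowers mitochondrial oxygen use under hypoxia, was almost absent from APs. Its level was 0.487 CPM in APs, 6.48 in BPs and 26.5 in neurons of the explants, and 0.329, 2.28 and 15.7 CPM in the vesicle. Neurons were 54.5-fold higher than APs in the explants (36.7 to 84.4) and 47.7-fold higher in the vesicle (34.4 to 67.4). APs held 26 UMIs of it in the explants and 45 in the vesicle. Its locus overlaps *Shmt2* on the opposite strand. *Ankrd37* (ENSMUSG00000050914, chr8:45996902-46005707, minus strand), an ankyrin repeat protein known mainly as a HIF target, had 12.3, 12 and 19.9 CPM in the explants and 9.23, 10.4 and 16.0 CPM in the vesicle. Its neurons were 1.61-fold higher than APs (1.41 to 1.85) and 1.73-fold higher (1.49 to 2.0). Its call was lost, at just under 1.5-fold, with cells thinned and with a mean over cells in the explants, and with all barcodes kept in the vesicle. It overlaps *Ufsp2* and *Lrp2bp*, which lie on the other strand, so part of its count could depend on how reads there were assigned. The loci of *Slc2a1* and *Bnip3* also overlap annotated antisense genes.

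*Bnip3* (ENSMUSG00000078566, chr7:138890836-138909519, minus strand), a mitochondrial protein that marks mitochondria for removal, had its highest level in BPs. It stood at 41.2 CPM in APs, 78.0 in BPs and 52.3 in neurons of the explants, and at 32.0, 41.6 and 28.7 CPM in the vesicle. BPs were 1.89-fold higher than APs in the explants (1.68 to 2.13), whereas the 1.30-fold difference in the vesicle (1.14 to 1.48) was below the threshold. The APs here are those of all regions together. Pallial-like APs alone had 52.6 CPM in the explants, below BPs, and 43.8 in the vesicle, above BPs. The highest AP cluster exceeded BPs in both libraries, at 96.1 and 52.3 CPM. Neurons were 1.27-fold above APs in the explants (1.17 to 1.37) but at 0.897 of APs in the vesicle (0.806 to 0.996), so the directions differed, both short of 1.5-fold.

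**Figure D1:**
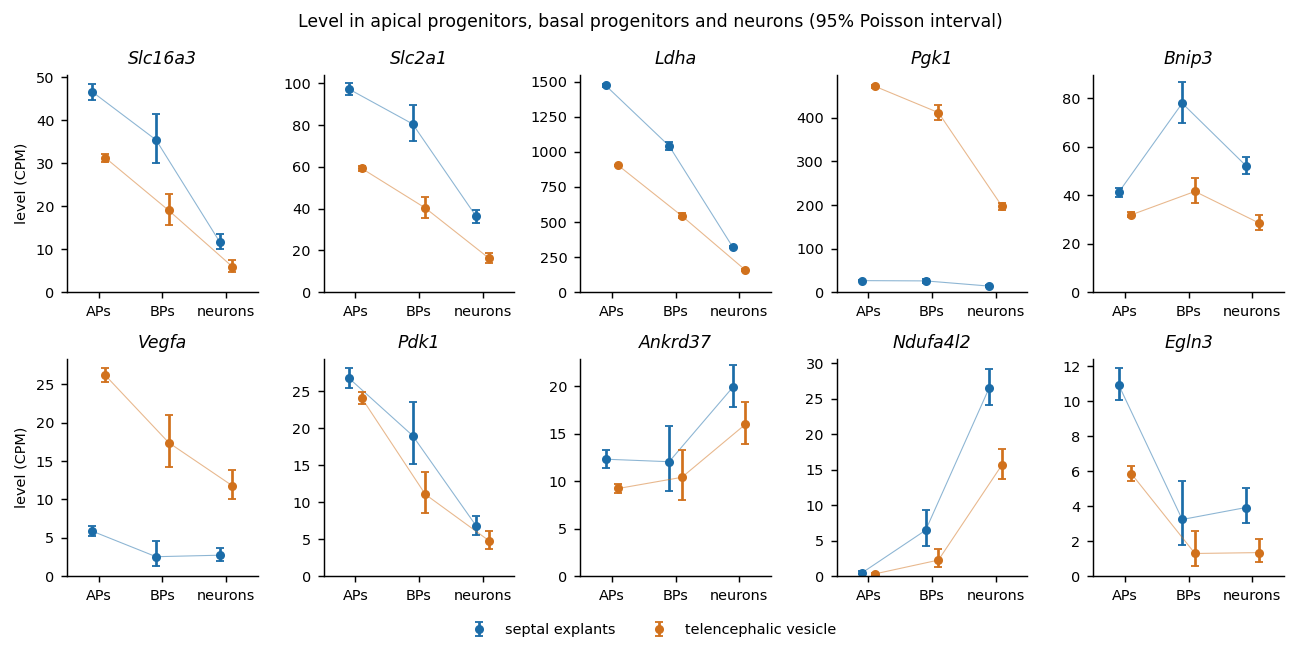
Level of each member (CPM, vertical axis, starting at 0) in APs, BPs and neurons of the septal explants (blue) and the telencephalic vesicle (orange). Points are the sum over the cells of a class, bars are 95% Poisson intervals, and lines join the classes of a library. In both libraries 7 members are lowest or near their lowest in neurons, *Ankrd37* and *Ndufa4l2* are highest there, and *Bnip3* is highest in BPs.

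Counted together, 7 of the 10 members were lower and 2 were higher in neurons than in APs, in either library. Of all genes with enough UMIs in the explants, 24.2% were lower and 26.7% were higher, and in the vesicle 30.5% were lower and 25.1% were higher. The median log2 fold of the members was -1.26 in the explants, beside 0.04 over 12806 genes, and -1.56 in the vesicle, beside -0.09 over 15974 genes. All 10 members had the UMIs needed to be counted. The vesicle counts rest on a naming rule added after the data were seen, that a cluster with nearly all cells on the AP side takes no neuron name. Without it, 0 members were lower when cell cycle genes were kept for clustering (median log2 fold -0.011), 1 was lower at a resolution of 2.5 (median -0.45), and 7 were lower with another seed. The members were chosen by known function, so the counts describe these 10 genes and no wider set.

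From APs to BPs fewer members differed. In the explants 2 members were higher, *Bnip3* and *Ndufa4l2* (13.3-fold, 7.52 to 23.6), and 2 were lower, *Egln3* (3.37-fold, 2.0 to 6.21) and *Vegfa* (2.30-fold, 1.27 to 4.66), beside 10.9% of all genes higher and 24.3% lower. In the vesicle 1 member was higher, *Ndufa4l2* (6.92-fold, 3.51 to 12.8), and 5 were lower, beside 13.1% and 23.5% of all genes. The 5 were *Egln3* (4.51-fold), *Pdk1* (2.18-fold), *Ldha* (1.66-fold), *Slc16a3* (1.65-fold) and *Vegfa* (1.51-fold). The share of members lower in BPs in the explants was therefore near that of all genes. These counts set BPs against APs of all regions together, and the part of this regional mix was not tested. Pallial-like APs of the explants had 1768 CPM of *Ldha*, 58.3 of *Slc16a3* and 31.8 of *Pdk1*, above the levels of all APs. Of *Vegfa* they had 4.71 CPM, below that of all APs. *Ldha* was 1.41-fold lower in BPs of the explants (1.37 to 1.46), and *Pgk1* and *Ankrd37* had overlapping intervals in APs and BPs of that library.

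To place these differences without cluster borders, the APs, BPs and neurons of a library, and in the explants also 74 differentiating LGE-like cells, were ordered by the balance of neuronal against AP marker UMIs and divided into 10 bins of equal size, from the AP end (bin 1) to the neuron end (bin 10). BP markers were highest in bin 8 in both libraries. *Ldha* was level over bins 1 to 7 of the explants, at 1339 to 1527 CPM, and dropped to 571 in bin 8, 307 in bin 9 and 214 in bin 10. In the vesicle it was 945 CPM in bin 7, 631 in bin 8, 241 in bin 9 and 116 in bin 10. *Slc2a1* did not stay level but climbed to bin 7, from 81.9 to 140 CPM in the explants and from 46.6 to 84.6 CPM in the vesicle, before it dropped to 25.2 and 12.2 CPM in bin 10. Bin 7 held 59.6% APs, 19.4% BPs and 14.0% neurons in the explants and 94.9% APs in the vesicle. In the vesicle *Slc2a1* had 81.6 CPM in bin 8 (76.0 to 87.6) beside 84.6 in bin 7 (80.6 to 88.7). The intervals overlap, and levels were not split by class within a bin, so the class with the maximum is not known. *Pdk1* also had its vesicle maximum in bin 7, at 32.7 CPM after 15.9 in bin 1, but it was flat over bins 1 to 7 of the explants (24.7 to 29.3 CPM). *Ndufa4l2* stayed between 0.238 and 1.01 CPM in bins 1 to 7 of the explants, reached 8.95 in bin 8 and ended at 34.5. In the vesicle it was 0.740 CPM in bin 8 and 14.7 in bins 9 and 10. In the explants the rise of *Ndufa4l2* and the drop of *Ldha* both began in bin 8. In the vesicle *Ldha* dropped first, in bin 8, where 56.3% of cells were APs, 29.7% BPs and 14.0% neurons. *Ndufa4l2* rose in bin 9, where 69.8% were neurons. The lineages in a bin were not separated, so their part in this order was not tested. Bins hold equal numbers of cells, so the same bin lies at different points of the axis in the 2 libraries. Bin 8 had a median log2 balance of 2.04 in the explants, with 0.194% APs, and of 0.363 in the vesicle. The explants went from a median of -0.341 in bin 7 to that of bin 8. The order of the 2 genes can thus not be compared between the libraries.

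**Figure D2:**
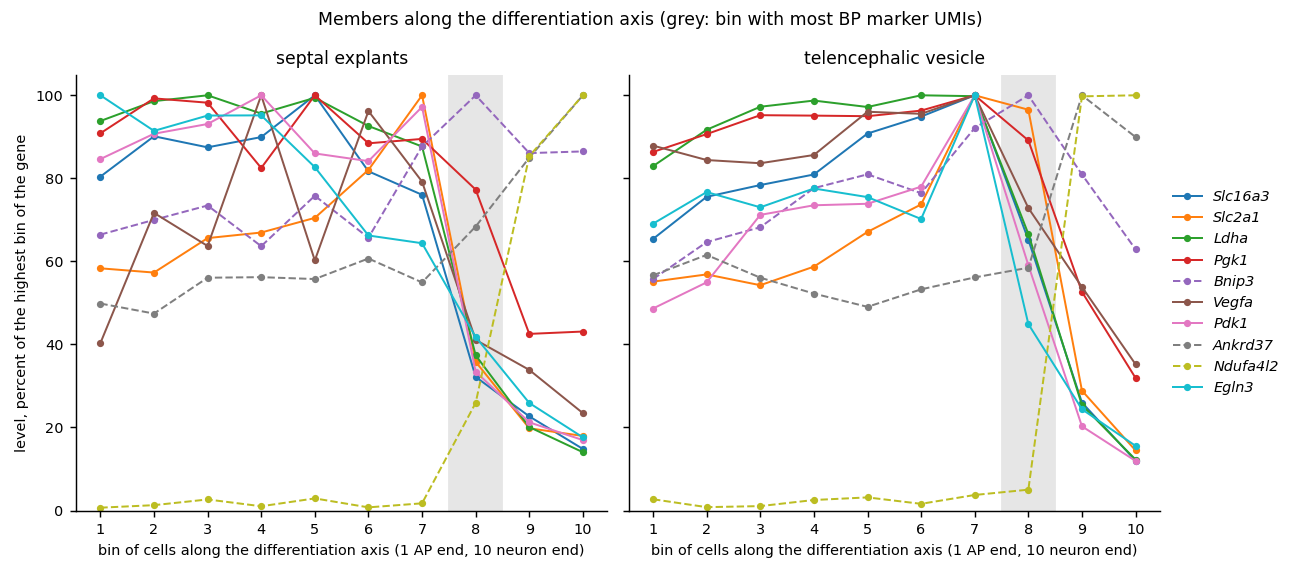
Level of each member in 10 bins of cells along the differentiation axis, as percent of its own highest bin, in the septal explants (left) and the telencephalic vesicle (right). Dashed lines mark *Bnip3*, *Ankrd37* and *Ndufa4l2*, and the grey band is the bin with most BP marker UMIs, bin 8. All 7 solid lines are lower in bin 8 than in bin 7, *Bnip3* peaks in bin 8, and *Ndufa4l2* is near 0 before bin 8.

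Among APs, regions differed. Clusters were grouped by likeness into septal, pallial, hem (the signalling centre of the medial pallium), and lateral and medial ganglionic eminence (LGE and MGE) classes, and in the vesicle also a ventral pallial (VP) class. The highest class was at least 1.5-fold above the lowest, with intervals apart, for 7 of 10 members in each library, beside 34.4% of all genes in the explants and 41.8% in the vesicle. *Slc2a1* was highest in septal-like APs, at 154 CPM in the explants (147 to 161, 897 cells) and 147 CPM in the vesicle (139 to 155, 442 cells). Pallial-like APs came next, at 86.5 and 67.6 CPM, so that septal-like APs stood 1.78-fold above them in the explants (1.66 to 1.90) and 2.17-fold in the vesicle (2.02 to 2.33). The lowest classes were MGE-like APs in the explants (79.8 CPM) and VP-like APs in the vesicle (32.6 CPM), with a full range of 1.93-fold and 4.51-fold. In the explants the intervals of the pallial-, hem-, LGE- and MGE-like classes overlapped between neighbours, so only the septal class stood apart. A UMI of *Slc2a1* was found in 72.7% of septal-like APs of the explants and 76.2% in the vesicle, and in 58.5% and 37.0% after each cell was thinned to the same depth, 8000 and 3500 UMIs. The thinned share in pallial-like APs was 42.1% and 20.7%. In erythroid-like cells, a red cell lineage with few genes in use, a UMI was found in 16 of 26 cells of the explants (median 29046 UMIs) and 22.1% of 399 cells of the vesicle (median 5425 UMIs). *Slc2a1* is known to be used by red cells, so this share is no clean background.

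The 4 septal-like clusters of the explants held 135, 139, 146 and 218 CPM of *Slc2a1*, above 11 of the other 12 AP clusters. The exception was a pallial-like cluster with 145 CPM. In the vesicle the only septal-like cluster had the highest level of 16 AP clusters. Next to it, at 100 CPM, was an AP cluster without a regional name that was led by *Prok2*, *Col25a1* and *Etv4*. The septal-like class had the highest *Slc2a1* level under all 13 alternative ways of clustering, filtering and counting in the explants and all 14 in the vesicle. Septal-like APs were also highest for *Ankrd37* (15.1 CPM in the explants, 1.61-fold above the pallial-like class, and 10.3 CPM in the vesicle, where the 1.42-fold range was not called). In the vesicle they were highest for *Egln3* (10.3 CPM, 3.62-fold above VP-like APs, 2.16 to 6.38) and for *Vegfa* (33.0 CPM, 1.55-fold above VP-like APs, 1.26 to 1.92). In the explants *Egln3* was lowest in septal-like APs, at 9.32 CPM, with a range of 1.48-fold that was not called, and *Vegfa* was highest in MGE-like APs, at 8.42 CPM. The regional order of these 2 members was therefore not shared by the libraries.

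Pallial-like APs led for most of the glycolytic members. *Ldha* had 1768 CPM there in the explants and 1213 in the vesicle, against 1037 and 655 in hem-like APs, the lowest class (1.70-fold, 1.63 to 1.78, and 1.85-fold, 1.82 to 1.89). *Slc16a3* had 58.3 and 43.2 CPM against 26.2 and 18.6 in hem-like APs (2.22-fold, 1.70 to 2.96, and 2.33-fold, 2.08 to 2.60). *Pdk1* had 31.8 and 37.8 CPM against 18.4 and 14.6 in hem-like APs (1.73-fold, 1.25 to 2.44, and 2.58-fold, 2.29 to 2.92). *Bnip3* had 52.6 and 43.8 CPM against 29.3 and 20.7 in MGE-like APs (1.80-fold, 1.52 to 2.13, and 2.12-fold, 1.93 to 2.33). *Pgk1* was also highest in pallial-like APs, at 30.7 and 580 CPM, but its range of 1.45-fold and 1.48-fold was not called. The lead over the next class was small for several of these, 1.08-fold for *Bnip3* (0.881 to 1.33) and 1.1-fold for *Pdk1* (0.967 to 1.26) in the explants, where the intervals include 1. Pallial-like APs stayed highest for *Ldha* in 12 of 13 alternatives in the explants and 14 of 14 in the vesicle, and for *Pgk1* in as many. They stayed highest for *Pdk1* in 4 of 13 and 14 of 14, for *Slc16a3* in 8 and 7, and for *Bnip3* in 6 and 8. The hem-like class of the vesicle holds a cluster of 297 cells led by *Ttr* and *Htr2c*, genes of the choroid plexus. Without it the lowest class was LGE-like for *Ldha* (724 CPM, 1.68-fold, 1.64 to 1.71) and MGE-like for *Pdk1* (15 CPM, 2.53-fold, 2.27 to 2.82), and it stayed hem-like for *Slc16a3* (20.0 CPM, 2.16-fold, 1.93 to 2.43). The number of members called between regions without that cluster was again 7. The LGE-like class of the vesicle holds a cluster of 552 cells of which 46.6% had more neuronal than AP marker UMIs. The part of differentiation in the low *Ldha* level of this class was not tested.

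**Figure D3:**
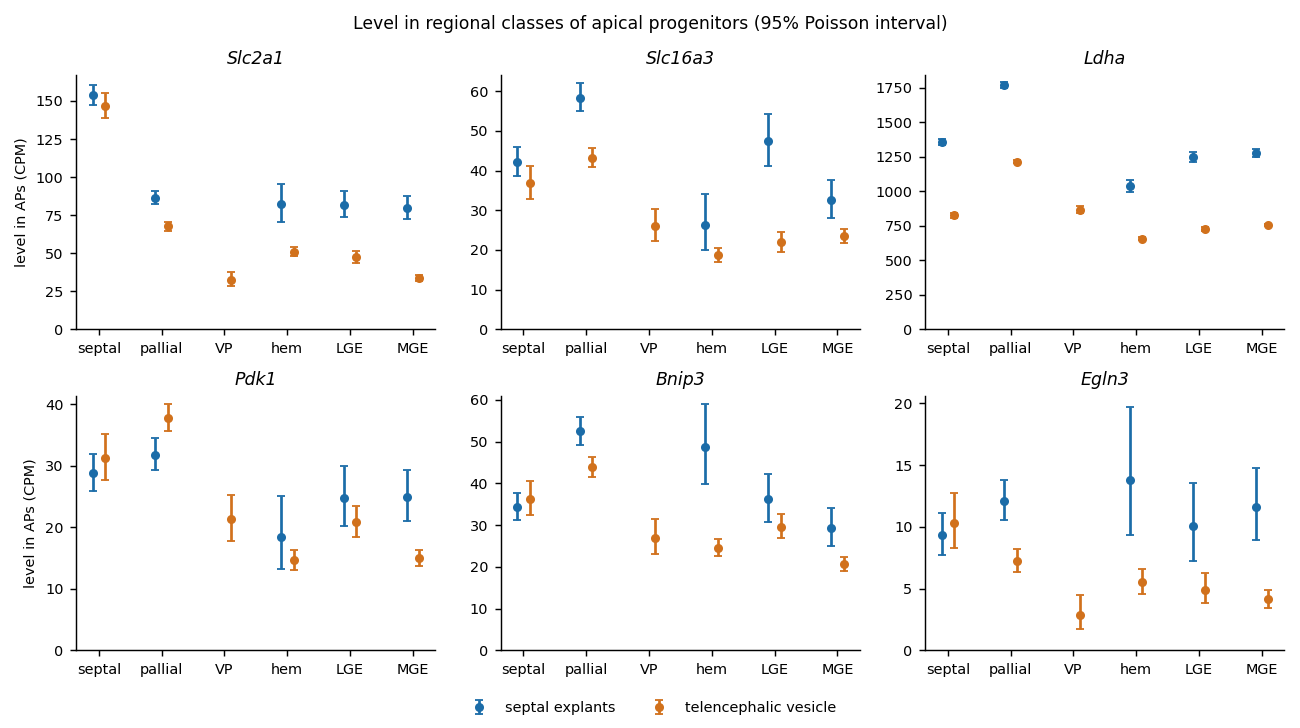
Level of 6 members (CPM, vertical axis, starting at 0) in regional classes of APs in the septal explants (blue) and the telencephalic vesicle (orange), with 95% Poisson intervals. The VP class was found in the vesicle alone. *Slc2a1* is highest in the septal class in both libraries, *Slc16a3*, *Ldha*, *Pdk1* and *Bnip3* are highest in the pallial class, and *Egln3* is highest in the septal class of the vesicle only.

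Regional classes were not uniform. In the explants, a pallial-like cluster of 255 cells led by *Lrrn1*, *Dct* and *Chst2* was among the 3 highest AP clusters for 8 of the 10 members. It had 112 CPM of *Slc16a3*, 145 of *Slc2a1*, 2249 of *Ldha* and 90.6 of *Bnip3*. Another pallial-like cluster, of 301 cells and led by *Aldoc* and *Dct*, had 19.9, 37.3, 1055 and 26.0 CPM of the same genes, so that the pallial class held both ends of the range for *Slc16a3*. The immediate early genes summed to 275 CPM in the first and 812 CPM in the second, the highest of the 16 clusters, and G2 and M phase genes to 7578 and 10670 CPM. The cluster with the most G2 and M phase genes, at 19325 CPM, was pallial-like and had 6 members above the median of the 16 clusters. It had 41.5 CPM of *Slc16a3* and 32.9 of *Bnip3* beside medians of 36.9 and 33.3. The clusters that came next in these genes, at 19195, 18817, 16875 and 16156 CPM, each had only 2 members above the median. The part of the cell cycle in the differences between clusters was not tested. In the vesicle, the AP cluster led by *Prok2* was among the 3 highest for 9 members, with 56.3 CPM of *Slc16a3* and 52.3 of *Bnip3*. The lowest level of *Slc16a3*, *Ldha*, *Pgk1* and *Pdk1* in the vesicle was in the cluster led by *Ttr* and *Htr2c*, at 12.6, 363, 289 and 10.8 CPM.

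*Ndufa4l2* was uneven among neurons. In the explants it was highest in a cluster of 128 neurons led by Gjd2, Barhl2, Uncx and Tfap2a, at 75.4 CPM (61.2 to 91.8). The marker rule placed this cluster in the pallial glutamatergic class, but none of its leading genes is a marker of that class. Next came a cluster of 270 neurons without a name that was led by *Tfap2e*, *Calb2* and *Ebf1*, at 65.6 CPM (57.5 to 74.5). The pallial glutamatergic-like cluster led by *Neurod6* and Neurod2 had 11.6 CPM (6.62 to 18.8). The larger Cajal-Retzius-like cluster had 21.4 CPM (15.3 to 29.1), and the smaller one, of 52 cells, had 0 UMIs, which allows up to 4.92 CPM (3 counts). Septal glutamatergic-like clusters had 0.441 CPM (239 cells) and 16.4 CPM (139 cells). MGE GABAergic-like neurons had 2.12 CPM (0.578 to 5.43), and a neuron cluster led by *Gsx1* and *Dlx1*, genes of the ganglionic eminences, had 0 UMIs in 144 cells, which allows up to 2.32 CPM. In the vesicle, pallial glutamatergic-like neurons had 29.8 CPM (25.2 to 35.0), Cajal-Retzius-like neurons 20.7 (13.8 to 30.0), and an unnamed cluster led by *Calb2* and *Onecut* genes 18.8 (12 to 27.9). GABAergic-like neurons were far below, at 3.00 CPM in the LGE class (0.817 to 7.67) and 0.80 and 2.07 CPM in the 2 MGE clusters. High levels were thus found in some, not all, glutamatergic-like and Cajal-Retzius-like clusters, and the intervals of all GABAergic-like clusters lay below those of the *Neurod6* cluster in the explants and of the pallial glutamatergic-like class in the vesicle. A UMI was found in 27.3% of cells of the cluster led by Gjd2 and Barhl2 (19.8 to 35.9%) and in 10.8% of the *Neurod6* cluster (5.51 to 18.5%, median 12774 UMIs), and in 17.0% of the pallial glutamatergic-like neurons of the vesicle (14.2 to 20.2%, median 6932 UMIs). It was found in 0 of 399 erythroid-like cells of the vesicle (median 5425 UMIs), which allows a share of up to 0.752% (3 cells).

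The other members varied less among neuron clusters than *Ndufa4l2*, but some were uneven. In the explants *Ankrd37* ranged from 4.92 CPM in the smaller Cajal-Retzius-like cluster to 39.2 in the cluster led by Gjd2 and Barhl2. In the vesicle its range was 11.2 to 20.2 CPM. *Vegfa* ranged from 0.553 to 5.34 CPM in the explants and from 8.99 to 17.0 in the vesicle. *Slc2a1* ranged from 18.7 CPM in a Cajal-Retzius-like cluster to 99.8 CPM in the cluster led by *Gsx1* and *Dlx1* in the explants, and from 7.82 to 22.3 CPM in the vesicle. *Ldha* ranged from 210 to 589 CPM in the explants and from 115 to 227 CPM in the vesicle, below every AP cluster of the same library (lowest 867 and 363 CPM). *Bnip3* stayed within 38.2 to 58.0 CPM and within 24.3 to 33.3 CPM.

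Most members also varied together from cell to cell within AP clusters. For each member, the APs of a cluster were thinned to the same depth and divided into 5 ranges of equal size by the summed UMIs of the 9 other members, and the level of the member left out was compared between the top and bottom range. The sums are mostly *Ldha* in the explants (1473 CPM in APs) and *Ldha* and *Pgk1* in the vesicle (903 and 473 CPM). For the other members the ranges thus largely follow these genes. In the explants 7 members were higher in the top range, in the vesicle 6, and none was lower in either. With a mean z score of the other members in place of the sum, 7 and 4 were higher and none was lower. Among genes that are not members, with ranges cut by all 10, 2.41% were higher and 3.56% lower in the explants, and 1.23% and 3.14% in the vesicle. *Slc16a3* went from 18.3 CPM in the bottom range of the explants through 28.1, 37.3 and 62.1 to 93.7 CPM in the top, a 5.12-fold difference (4.09 to 6.46). In the vesicle it went from 18.9 to 49.1 CPM (2.59-fold, 2.04 to 3.32). *Bnip3* went from 21.8 to 75.6 CPM (3.47-fold, 2.80 to 4.32) and from 19.5 to 49.5 CPM (2.54-fold, 2.0 to 3.24). *Pdk1* had 2.94-fold (2.24 to 3.90) and 2.92-fold (2.12 to 4.06), and *Slc2a1* 2.73-fold (2.39 to 3.12) and 1.73-fold (1.47 to 2.04). *Ldha* (1.79- and 1.53-fold) and *Pgk1* (1.78- and 1.55-fold) differed less. *Ankrd37* was 1.56-fold higher in the explants (1.07 to 2.28) and 1.28-fold in the vesicle (0.864 to 1.90), which was not called.

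*Egln3*, *Vegfa* and *Ndufa4l2* were not called in either library. *Egln3* had 12.3 CPM in the bottom and 13.1 in the top range of the explants, a ratio of 1.07 (0.744 to 1.53). *Vegfa* had 28.3 and 27.8 CPM in the vesicle, a ratio of 0.981 (0.771 to 1.25). *Egln3* in the vesicle and *Vegfa* in the explants had 49 and 47 UMIs in the cells compared, just under the minimum of 50. Their ratios were 1.59 (0.869 to 3.00) and 1.80 (0.960 to 3.48), with intervals that include 1. Whether these 2 members belong to the joint pattern is therefore not settled. *Ndufa4l2* had 10 and 5 UMIs and could not be read.

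**Figure D4:**
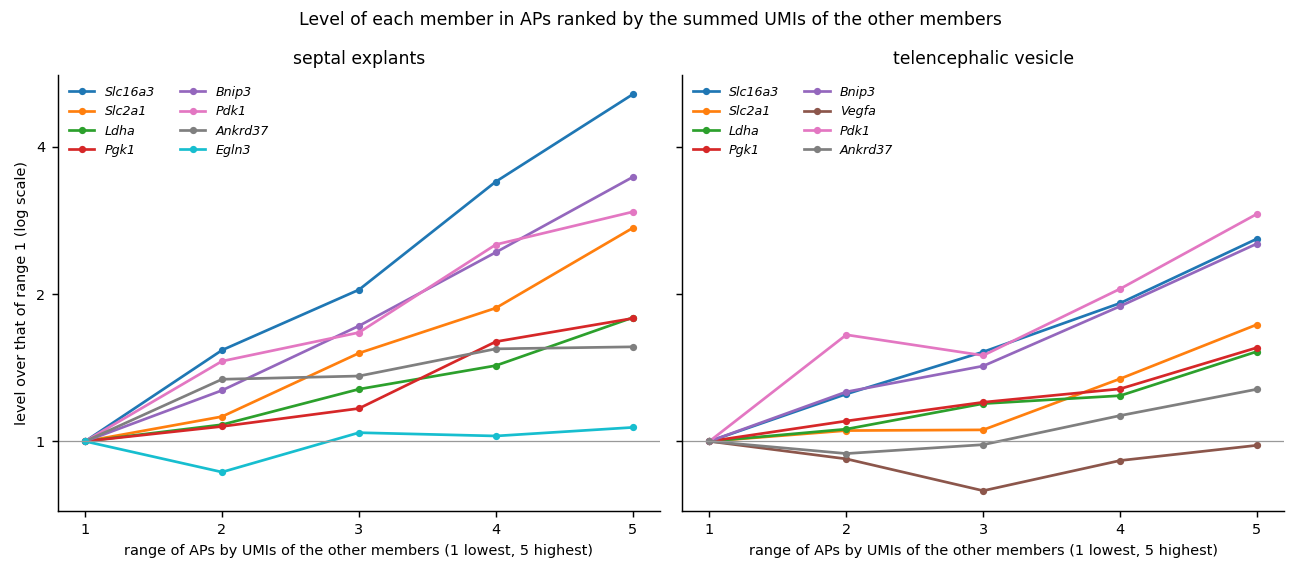
Level of a member in 5 ranges of APs by the summed UMIs of the other members, divided by its level in range 1 (log axis), in the septal explants (left) and the telencephalic vesicle (right). Members with under 50 UMIs in the cells compared are left out. *Slc16a3*, *Bnip3*, *Pdk1* and *Slc2a1* climb most in the explants, to between 2.73- and 5.12-fold, while *Egln3* in the explants and *Vegfa* in the vesicle end within 1.07-fold of range 1.

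Cell cycle genes moved with these ranges. From the bottom to the top range, the summed G2 and M phase genes went from 12474 to 8734 CPM in the explants and from 12123 to 9663 in the vesicle. S phase genes went from 4703 to 6126 CPM and from 5273 to 5915. Ranked by G2 and M phase genes in place of the members, the top range had 0.534 of the bottom level of *Slc16a3* in the explants and 0.510 in the vesicle. The ratios were 0.515 and 0.471 for *Bnip3*, 0.558 and 0.567 for *Slc2a1*, and 0.638 and 0.438 for *Pdk1*. *Pgk1* (0.943 and 0.841) and *Ankrd37* (1.05 and 0.888) differed little. In an alternative, the ranges were cut within cluster and within 3 ranges of G2 and M phase genes. Then 6 members in the explants and 4 in the vesicle were higher in cells high for the others. Without this step the counts were 7 and 6. It was added after the data were seen, and S phase genes were not treated this way. Immediate early genes went from 535 to 444 CPM and from 356 to 307 CPM, the mitochondrial share from 2.21 to 1.92% and from 2.58 to 2.49%, and the median depth before thinning from 13886 to 15164 UMIs and from 10783 to 10480. The part of any of these in the joint pattern was not tested.

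Other genes high in the same APs included glycolytic enzymes. The 10 genes that are not members with the largest fold in both libraries were *Grhpr*, *Tpi1*, *Dleu7*, *Pgm2*, *Fam162a*, *Scd1*, *Eno1*, *H2-K1*, *Aldoa* and *Mvd*. *Tpi1*, triose phosphate isomerase, was 2.14-fold higher in the top range of the explants (2.05 to 2.23) and 1.82-fold in the vesicle (1.72 to 1.93). *Aldoa*, aldolase, was 2.44- and 1.65-fold higher and *Eno1*, enolase, 2.12- and 1.68-fold higher. *Grhpr*, a reductase of glyoxylate and hydroxypyruvate, was 2.62- and 1.86-fold higher, and *Fam162a*, a mitochondrial HIF target, 1.75- and 1.76-fold higher. *Scd1* and *Mvd*, enzymes of lipid and sterol synthesis, were 2.80- and 1.69-fold and 1.63- and 1.69-fold higher. Of the glycolytic enzymes with enough UMIs, 9 of 12 were higher in the top range of the explants and 4 of 11 in the vesicle. Of the HIF pathway genes, 0 of 7 were higher or lower in either library. Of other HIF targets, 7 of 18 and 2 of 17 were higher.

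The families of the members were then compared, neurons against APs, since enzymes come in forms used by different cells. Of the 14 glycolytic enzymes other than *Pgk1*, 8 were lower and 4 higher in neurons of the explants, and 10 lower and 4 higher in the vesicle. The median log2 fold was -0.96 and -1.18, beside 0.04 and -0.09 over all genes. The 4 that were higher were the same in both libraries, and each has a relative that was lower. *Hk2*, the hexokinase of growing cells, was 4.66-fold lower in neurons of the explants (3.57 to 6.18) and 8.47-fold lower in the vesicle (6.71 to 10.8), while *Hk1* was 1.69- and 1.76-fold higher. *Eno1* was 2.36- and 2.98-fold lower, while *Eno2*, the neuronal enolase, was 4.07-fold (3.21 to 5.17) and 4.01-fold (2.92 to 5.46) higher. Among the phosphofructokinases, *Pfkl* was 2.22- and 2.58-fold lower, while *Pfkm* (1.81- and 1.71-fold) and *Pfkp* (2.05- and 1.81-fold) were higher.

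Genes of lactate and pyruvate were mixed. Of 12 counted in the explants, 4 were higher and 4 lower in neurons, and in the vesicle 4 and 3, beside 26.7% and 24.2%, and 25.1% and 30.5%, of all genes. *Ldhb*, the lactate dehydrogenase subunit of oxidative tissues, was at 1.33 and 1.40 times its AP level in neurons, short of the threshold, beside the fall of *Ldha*. *Pdk3* was 2.25- and 2.70-fold lower, as *Pdk1* was, but *Pdk2* was 1.96- and 2.55-fold higher. *Pdp1*, the phosphatase that reopens pyruvate dehydrogenase, was 3.37-fold (2.88 to 3.93) and 3.11-fold (2.73 to 3.53) higher. *Mpc1*, a subunit of the mitochondrial pyruvate carrier, was 2.09- and 1.94-fold higher, and *Pdhb*, a subunit of pyruvate dehydrogenase, 1.98- and 1.57-fold higher. *Slc16a1*, a lactate transporter like *Slc16a3*, was 5.80-fold (4.64 to 7.35) and 6.41-fold (4.95 to 8.46) lower.

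**Figure D5:**
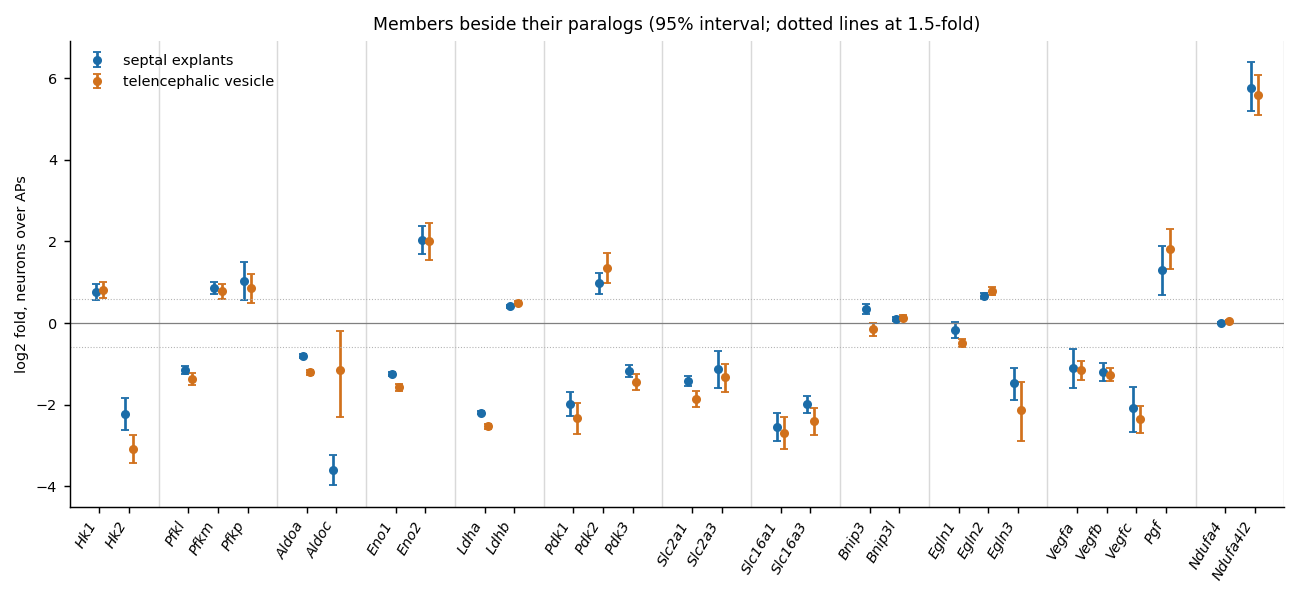
Log2 fold of neurons over APs for members and their relatives, grouped by family, in the septal explants (blue) and the telencephalic vesicle (orange). Bars are 95% intervals and dotted lines mark 1.5-fold. Families such as *Hk*, *Pfk*, *Eno* and *Pdk* hold genes on either side of 0, both glucose and both lactate transporters lie below it, and *Ndufa4l2* lies far above while *Ndufa4* lies at it.

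Relatives did not always follow the members. *Ndufa4*, the respiratory chain subunit that *Ndufa4l2* resembles, was at 1.01 (0.986 to 1.03) and 1.03 (1.0 to 1.05) times its AP level in neurons. *Bnip3l* was at 1.07 and 1.1 times, and *Slc2a3*, another glucose transporter, was 2.18- and 2.52-fold lower. Of the oxygen sensors, *Egln1* was at 0.891 (0.779 to 1.02) and 0.710 of its AP level, and *Egln2* was 1.59- and 1.72-fold higher, against the fall of *Egln3*. *Vegfb* was 2.28- and 2.39-fold lower and *Vegfc* 4.25- and 5.12-fold lower, as *Vegfa* was, while *Pgf* was 2.45- and 3.54-fold higher from 1.07 and 1.06 CPM in APs.

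Of the factors themselves, *Hif1a*, *Arnt* and *Arnt2* stayed within 1.5-fold, while *Hif3a* was lower in neurons. *Hif1a* was at 0.967 (0.893 to 1.05) of its AP level in neurons of the explants and at 0.845 (0.789 to 0.904) in the vesicle. *Arnt* was at 0.968 and 0.929, and *Arnt2* at 1.22 and 1.03. *Epas1* had 2 UMIs in APs and 1 in neurons of the explants and 34 and 1 in the vesicle, too few to read. *Hif3a* was 2.80-fold (1.67 to 5.03) and 4.47-fold (2.33 to 9.84) lower, from 2.79 and 3.02 CPM in APs. *Hif1an*, which blocks HIF activity, was at 1.17 and 0.701. Of 8 HIF pathway genes, 1 was higher and 1 lower in each library. HIF protein is set mainly by its stability, which transcript levels do not show.

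Other HIF targets were mixed. Of 22 counted in the explants, 5 were higher and 8 lower in neurons, with a median log2 fold of -0.17, and of 23 in the vesicle, 3 were higher and 12 lower, with a median of -0.59. Of all genes, 26.7% were higher and 24.2% lower in the explants and 25.1% and 30.5% in the vesicle, so the counts of this list in the explants were near those of all genes. The largest differences in the vesicle were in *Ak4*, a mitochondrial adenylate kinase, at 6.35-fold (4.54 to 9.13) and 12.3-fold (8.51 to 18.6) lower, in *Bhlhe40*, a transcriptional repressor, at 6.30- and 10.7-fold lower, and in *Stc2*, a secreted glycoprotein, at 3.48- and 4.62-fold lower. Of the receptors of VEGF, *Nrp1* was 9.14- and 8.17-fold higher and *Nrp2* 25.2- and 48.5-fold higher in neurons, where both also serve as receptors of semaphorins in axon guidance. *Kdr*, the main endothelial receptor, had 0.833 CPM in APs and 0.0751 in neurons of the vesicle, and too few UMIs in the explants.

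In the explants, YFP could be used to compare embryos in part. Cells with at least 3 YFP UMIs (1970 APs and 731 neurons) come from the E11.5 PGKCre embryos, and cells without a YFP UMI (1028 APs and 433 neurons) may come from either kind. A tdTomato UMI was found in 1.22% of the former APs and 15.5% of the latter, and in 0.410% and 24.9% of the neurons. No member was called higher or lower between them, in APs or in neurons, beside 2.76% of all genes higher and 1.37% lower in APs and 2.6% and 2.39% in neurons. In APs the ratios of the 9 members with enough UMIs ran from 0.879 for *Egln3* (0.732 to 1.06) to 1.48 for *Slc16a3* (1.34 to 1.63). *Ldha* was 1.29-fold higher (1.27 to 1.31). In neurons the ratio for *Ndufa4l2* was 1.34 (1.06 to 1.70). YFP-positive APs were also deeper, with a median of 14924 against 13356 UMIs, and 28.3% against 24.2% of them were septal-like. The part of depth and region in these ratios was not tested. Stage, Cre line and litter cannot be told apart in this contrast.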

How the data were processed

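The authors deposited raw UMI counts per gene and barcode for 1 library of septal explants and 1 of the telencephalic vesicle, made with Cell Ranger 2.1.1 and 7.1.0 and mm10 per the submitters' processing notes. YFP and tdTomato sequences were added to the reference of the explants. Whether intronic reads were counted is not given in the sources used here. The explants held 5827 barcodes and 83103280 UMIs (3902 to 84281 per barcode), the vesicle 14283 barcodes and 194821794 UMIs (500 to 207131).

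Barcodes were kept where the mitochondrial share lay within 3 MAD of the median. Doublets were removed with Scrublet in scanpy 1.11.5 at a score of 0.25, set after its automatic threshold had marked almost no barcode of the explants, which removed 77 and 884 barcodes. Cells were clustered on 2000 variable genes, without the members, related lists and 95 cell cycle genes, with 30 principal components, 15 neighbours and Leiden at a resolution of 1.5 (igraph 0.11.9). A class name needed 3 markers, each in at least 5% of the cells of the cluster and 1.5-fold above the mean of other clusters, and a regional name a z score of 0.8. Clusters with at most 10% of their cells above 0 on the differentiation axis, which is the neuron side, took no BP or neuron name. These naming rules were set after clusters had been seen. The axis is the log2 ratio of UMIs of 11 neuronal to 9 AP genes.

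UMIs were summed per class, with exact Poisson intervals for CPM, exact conditional intervals for folds and Clopper-Pearson intervals for shares. A level of 0 was read against 3 counts. Thinning depths, 8000 and 3500 UMIs, are the largest multiples of 500 that 90% of kept cells reach, and 510 and 1139 shallower cells were left out. The fold calculation, there with the median fold of all genes set to 1, and the division into ranges were tested on simulated data. Clustering, naming, doublet removal, thinning and the calls between regions were not. Other tools were matplotlib 3.10.9, pandas 2.3.3, scipy 1.17.1, scikit-learn 1.9.0, numpy 2.4.6, anndata 0.12.19 and Python 3.11.15. Coordinates are those of GRCm38.

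The members and lists were chosen with earlier results of these data known. Named besides the members are their paralogs, the HIF subunits and, per list, the 3 genes with the largest fold between APs and neurons of the vesicle, and the 10 other genes with the largest fold between AP ranges in both libraries. Genes of the lists outside this rule (*Hk1*, *Pfkl*, *Pfkm*, *Pfkp*, *Mpc1*, *Pdhb*) were named after their values were seen.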

Additional observations from a re-analysis of the deposited data

Results flagged for a closer look

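*Bnip3* was set aside because its direction between neurons and APs differed between the libraries. Neurons had 1.27 times the AP level in the septal explants (interval 1.17 to 1.37) and 0.897 times in the telencephalic vesicle (0.806 to 0.996). The intervals cover counting error only, neither value reached 1.5-fold, and the difference between the libraries was not tested, since each tissue has 1 library. Stage, dissection, kit and counting programme differ between the libraries as well and cannot be told apart.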

How the results depend on the processing

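Of 234 values under alternatives, 202 stayed within the allowed change, 32 moved and 0 reversed direction. Most of these values are counts of members, which cannot reverse. Between neurons and APs of the vesicle, single members did change side over 15 alternatives. The ratio ran from 0.162 to 1.14 for *Slc16a3*, from 0.267 to 1.06 for *Slc2a1* and from 0.871 to 1.45 for *Bnip3*. No member changed side in that comparison in the explants, but some did in other comparisons. In the explants the number of members higher in neurons was 1 with cells thinned, with the mean over cells of each cell CPM, and at a fold of 2, since *Ankrd37*, at 1.61-fold, fell short. The number higher in BPs was 1 at a resolution of 2.5 (also without the rule on the AP side), with cells thinned, at a fold of 2 and with at least 200 UMIs. At a fold of 2, 1 member differed between AP regions there, and 4 (explants) and 3 (vesicle) were higher in cells high for the others. In the vesicle the number higher in neurons was 1 with all barcodes kept and at a fold of 2, and the median log2 fold was -0.99 with all barcodes and -1.05 with doublets kept. The number higher in BPs was 0 with all barcodes and with at least 200 UMIs, and 2 with the mean over cells. The number lower in BPs was 3 with all barcodes, with the mean over cells and with the median fold of all genes set to 1, and 2 at a fold of 2. In APs with YFP, 2 members were higher with cells thinned and 1 with the mean over cells.

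The rule that a cluster on the AP side takes no neuron or BP name was added after the data were seen, and the vesicle depends on it. Without it, clusters of which nearly all cells lay on the AP side were named neurons or BPs. With cell cycle genes kept, 1 member was then higher and 0 were lower in neurons, with a median of -0.011, and 0 were higher in BPs. At a resolution of 2.5, 1 was lower in neurons, with a median of -0.45, and 1 in BPs. With another seed, 3 were lower in BPs. Leaving out the cluster of the vesicle led by *Ttr*, also added after the data were seen, changed no count of members. No paired analysis was possible because each tissue has 1 library, and for the same reason no replicate could be left out. Counts limit *Vegfa*, *Ndufa4l2* and *Egln3* most, and variation between embryos cannot be seen.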

Other observations

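Non-neural cells of these libraries, which entered no comparison, had member levels of their own. Endothelial-like cells of the telencephalic vesicle (22 cells) had 515 CPM of *Slc2a1* (464 to 569), which carries glucose across the blood-brain barrier, and 92.5 CPM of *Ankrd37* (71.9 to 117). These were the highest levels of both genes among the classes of that library. Mesenchymal-like cells (488 cells) had 35.2 CPM of *Vegfa* (30.9 to 40.0) and 3.80 CPM of *Ndufa4l2* (2.48 to 5.57). Macrophage-like cells of the vesicle (73 cells) had 14.4 CPM of *Egln3* (8.65 to 22.4). In the explants, a cluster of 44 cells led by macrophage genes (Pf4, Lyz2) and mesenchymal genes (Col3a1, Lum) alike had 12.6 CPM of *Egln3* (6.02 to 23.1) and 21.4 CPM of *Vegfa* (12.4 to 34.2). Erythroid-like cells of the vesicle (399 cells) had 41.1 CPM of *Slc2a1* (34.0 to 49.2) and no UMI of *Egln3* or *Ndufa4l2*, which allows up to 1.05 CPM (3 counts).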
